A study of Rattus norvegicus with 12 samples.

Results

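The genes described here are 35 chaperones, folding enzymes, degradation factors and stress sensors of the endoplasmic reticulum, chosen by name from 26312 genes in the tables. All 35 were found, and all 35 had enough reads to be among the 15697 genes tested. By function, 12 were chaperones and co-chaperones, 10 were disulfide and proline isomerases and oxidases, 9 belonged to the degradation pathway, and 4 were sensors or their transcription factors. Their RNA was measured by sequencing of polyA-selected RNA from rat uterus. Each library carried its own number in the labels, and p-values measure only the spread between these samples. The 4 groups of 3 libraries each were Brown Norway (BN) rats given progesterone (P4), BN rats given oil, Holtzman Sprague Dawley (HSD) rats given P4, and HSD rats given oil. BN is an inbred strain, and HSD is an outbred stock. All animals were 10 weeks old, had their ovaries removed and then rested for 2 weeks, so the oil groups carried no ovarian hormone supply either. Treated animals received a subcutaneous dose of 40 µg P4 for each gram of weight, the others sesame oil as vehicle, and the uterus was taken 9 h later. A whole uterus mixes epithelium, stroma, muscle and blood cells, and more RNA per cell cannot be told apart from more cells of a type.

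Proteins bound for the cell surface or for secretion enter the endoplasmic reticulum as unfolded chains. There Hsp70 and Hsp90 family chaperones, lectins and disulfide isomerases fold them, and chains that fail are pulled back to the cytosol and destroyed by the proteasome. When unfolded chains build up, the sensors IRE1, ATF6 and PERK raise transcription of the folding genes and slow translation, a program called the unfolded protein response. In the uterus, progesterone readies epithelium and stroma for implantation, which includes the production of secreted and membrane proteins.

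Libraries held between 11763894 and 19033254 reads in genes, and a gene with 3 reads would stand at 0.158 to 0.255 CPM before scaling. CPM here are counts per 1000000 total gene reads, scaled between libraries by TMM factors. HSD P4 replicate 3 stood apart in composition, with smooth muscle markers a median of -0.69 on the log2 scale relative to the mean of all libraries. Its nuclear oxidative phosphorylation subunits had a median of 0.83 on the same scale. Without it 29 of the 35 genes rose in HSD and none fell, against 29 and 1 with it, and their median log2 change there was 0.74. Of 9 uterine or muscle marker names 6 were found, and Pgr, the progesterone receptor, was present in every library, from 235.5 to 394.5 CPM. Over all tested genes 14.0% rose and 11.8% fell in BN, and 20.3% rose and 18.7% fell in HSD. Of these 6 markers 0 rose and 3 fell in BN, and 0 rose and 4 fell in HSD, with median log2 changes of -0.35 and -0.42. Their summed level was 7017 to 8982 CPM in BN with P4, 9465 to 11809 in BN with oil, 4599 to 9479 in HSD with P4 and 6392 to 9792 in HSD with oil. Wnt7a, a signalling protein of the uterine epithelium, stood at 24.3 to 31.0 CPM in BN with P4, 87.0 to 107 in BN with oil, 20.9 to 29.0 in HSD with P4 and 97.8 to 166 in HSD with oil. Of 20 tested oxidative phosphorylation subunits, a list used here as a sign of RNA quality, 7 rose in BN and 19 rose in HSD. Their summed level was 1861 to 2402 CPM in BN with P4 and 1494 to 1683 CPM in BN with oil. In HSD the same sum was 2377 to 3706 CPM with P4 and 1475 to 1870.3 CPM with oil. The part of these shifts in the results below was not tested. The groups shared no index barcode, so a sequencing batch that followed the groups cannot be told apart from strain or treatment.

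Most endoplasmic reticulum genes rose under progesterone in both strains, and the chaperones had the largest median change. In BN 23 of the 35 genes rose and 1 fell, where 14.0% of all tested genes were called higher and 11.8% lower. In HSD 29 rose and 1 fell, where 20.3% of all tested genes were called higher and 18.7% lower. A gene was called at an adjusted p below 0.05 in edgeR's quasi-likelihood test over all tested genes. The 23 that rose in BN also rose in HSD, 6 rose in HSD alone by this threshold, and Herpud1 was the gene that fell in each strain. The share of all tested genes called higher in both strains was not counted, so this overlap is not read as particular to these genes. The median log2 change of the 35 genes was 0.53 in BN and 0.84 in HSD, against -0.01 and -0.02 over all tested genes. With the changes averaged over strains, 30 were called higher and 2 lower, Herpud1 and Sil1, where 24.6% of tested genes were called higher and 23.7% lower. Together the 35 genes held 0.902 ± 0.0305% of gene reads in BN with P4 and 0.519 ± 0.0428% in BN with oil (mean ± SD, n = 3). The share was 1.03 ± 0.0725% in HSD with P4 and 0.467 ± 0.0155% in HSD with oil. No P4 library overlapped an oil library in this share, which was lowest at 0.868% with P4 and highest at 0.568% with oil.

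The size of response is given by function. Over all tested genes 14.0% rose and 11.8% fell in BN, and 20.3% rose and 18.7% fell in HSD. Among the 12 chaperones 10 rose in BN and 11 in HSD, with median log2 changes of 1.31 and 1.88. Of the 10 isomerases and oxidases 8 rose in BN and 10 in HSD, with medians of 0.49 and 0.87. Among the 9 degradation genes 2 rose and 1 fell in BN (22.2% and 11.1%), with a median of 0.15. In HSD 5 of them rose and 1 fell (55.6% and 11.1%), with a median of 0.29. Of the 4 sensors 3 rose in each strain, with medians of 0.54 and 0.55. These medians describe lists of unequal length and were not tested against each other.

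**Figure D1:**
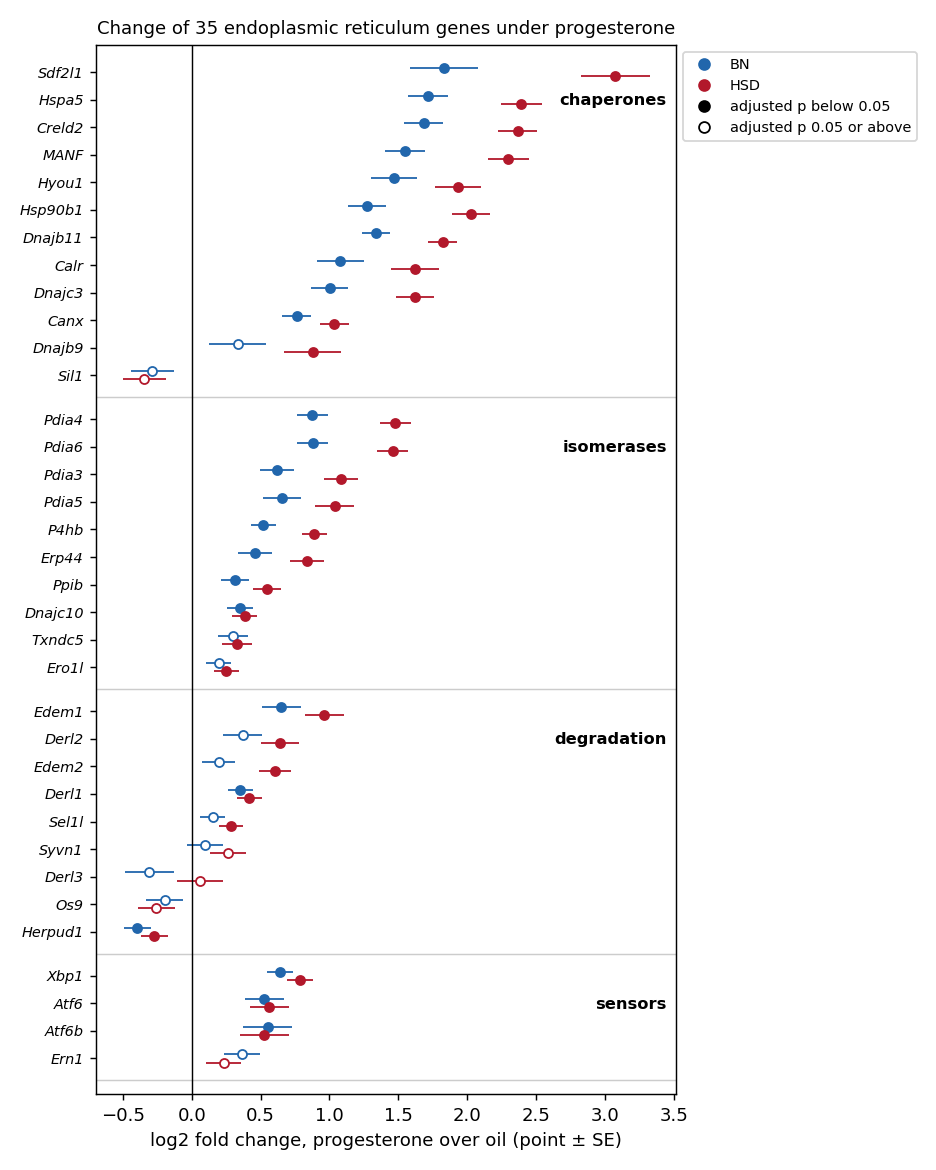
Log2 fold change of each of the 35 genes, progesterone over oil, in BN (blue) and HSD (red), with points for the fitted change and bars for its SE, ordered within function by the change averaged over strains. Filled points passed an adjusted p of 0.05; the chaperones reach 3.08 for Sdf2l1 in HSD, and Herpud1 lies below 0 in both strains.

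The promoters of several of these genes carried the binding motif of the stress response, and they are shown because Hspa5, Creld2 and Hsp90b1, among the genes raised most, are carriers. RefSeq promoter entries of build GRCr8, which run from 250 bases before to 50 bases after a gene's start, were matched for 27 of the 35 genes, not for MANF, Ern1, Ero1l, Derl1, Pdia6, Atf6, Os9 and Pdia3. Offsets count from 0 at the start. The endoplasmic reticulum stress response element (ERSE) was searched on both strands as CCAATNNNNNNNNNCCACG, a CCAAT box and a CCACG piece joined by 9 bases. It was found in 8 of the 27 genes (29.6%) and in 22 of all 33469 promoter entries (0.0657%). The 35 genes were chosen by name for this pathway, so that share describes the list and not a response to progesterone. Each match is shown with 20 flanking bases where the entry allows, on the strand of the gene, with the CCAAT and CCACG pieces in capitals (ATTGG and CGTGG where the match lies on the other strand).
Hspa5: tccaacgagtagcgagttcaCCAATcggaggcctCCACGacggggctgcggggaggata
Hsp90b1: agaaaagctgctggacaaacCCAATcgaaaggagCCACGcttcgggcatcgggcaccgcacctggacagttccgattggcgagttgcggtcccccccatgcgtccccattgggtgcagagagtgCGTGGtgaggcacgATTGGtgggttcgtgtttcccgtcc
Creld2: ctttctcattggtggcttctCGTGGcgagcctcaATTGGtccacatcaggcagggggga
Calr: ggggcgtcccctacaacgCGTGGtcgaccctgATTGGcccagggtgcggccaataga
Canx: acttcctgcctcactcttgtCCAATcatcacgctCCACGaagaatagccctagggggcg
Dnajc3: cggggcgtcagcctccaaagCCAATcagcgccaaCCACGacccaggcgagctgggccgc
Xbp1: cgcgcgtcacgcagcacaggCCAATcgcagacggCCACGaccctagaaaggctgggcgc
Derl3: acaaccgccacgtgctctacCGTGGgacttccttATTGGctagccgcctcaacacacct
The Hspa5 stretch lies at chr3:38452953-38453011 on the + strand, that of Creld2 at chr7:121789219-121789277 on the + strand and that of Xbp1 at chr14:84604538-84604596 on the + strand. Hsp90b1, at chr7:23012327-23012489 on the - strand, had 2 matches. Calr (chr19:40213117-40213173) and Dnajc3 (chr15:102432514-102432572) lie on the + strand, and Canx (chr10:35158049-35158107) and Derl3 (chr20:12766581-12766639) on the - strand. Of these 8 genes 7 rose in both strains, and in the main fit Derl3 passed the test in neither. Of all 35 genes 23 rose in both strains, and whether carriers of the motif rose more often was not tested.

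A shorter form, ERSE-II, joins ATTGG and CCACG by 1 base. It was found in 3 of the 27 genes (11.1%) and in 17 of all entries (0.0508%), and it is shown in capitals because its carriers moved in opposite directions.
Dnajb11: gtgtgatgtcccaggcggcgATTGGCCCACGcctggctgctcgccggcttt
Hyou1: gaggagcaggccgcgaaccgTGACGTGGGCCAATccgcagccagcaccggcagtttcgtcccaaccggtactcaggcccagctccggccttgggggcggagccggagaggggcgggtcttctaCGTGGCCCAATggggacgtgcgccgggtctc
Herpud1: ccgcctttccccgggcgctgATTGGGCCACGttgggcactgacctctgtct
Dnajb11 (chr11:91672780-91672830, - strand) and Hyou1 (chr8:53602671-53602824, + strand) rose in both strains, whereas Herpud1 (chr19:10614801-10614851, - strand) fell. The Hyou1 stretch holds 2 matches on the other strand, and the capitals of the left one also cover a match to TGACGTGG, the unfolded protein response element (UPRE), which overlaps it. Another promoter entry of Hyou1, at chr8:53602822-53603121 on the + strand, held no ERSE, ERSE-II or UPRE match. The matches of Hyou1 thus depend on the annotated start used. The UPRE was found in 2 of the 27 genes, Hyou1 and Dnajc10, and in 0.595% of all entries. The CCAAT box alone was in 23 of the 27 genes and in 37.5% of entries. A full steroid response element, AGAACA and TGTTCT joined by 3 bases, was in 0 of the 27 genes and in 5 of all entries (0.0149%). An element this rare would hardly be met in 27 promoters, so no conclusion is drawn from its absence. Its half-site TGTTCT was in 3 of the 27 genes (11.1%) and in 20.7% of entries. The amino acid response element TTGCATCA was in Herpud1 and in 266 of all entries. Sdf2l1, the gene with the largest change, had a CCAAT box and a CCACG piece but no ERSE, ERSE-II or UPRE match. A match describes these letters in this window only.

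**Figure D2:**
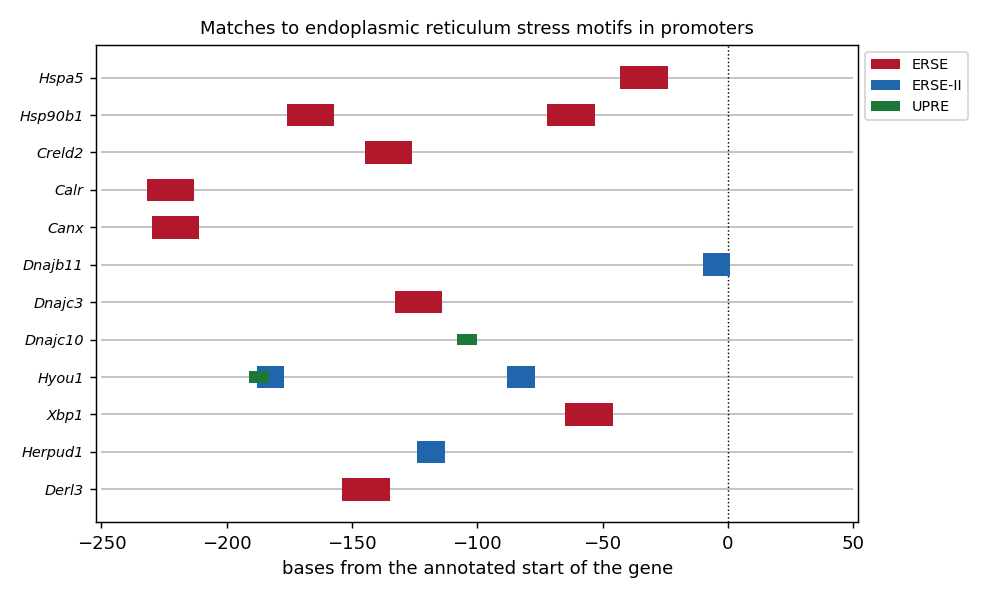
Positions of exact matches to ERSE (red), ERSE-II (blue) and UPRE (green) in the 12 promoters with a match, in bases from the annotated start of the gene, with the grey line for the window searched. The ERSE of Hspa5 begins 43 bases before the start and the ERSE-II of Dnajb11 begins 10 bases before it, while Calr and Canx carry theirs near the far end of the window.

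Hspa5, which encodes the Hsp70 chaperone BiP (Rnor_5.0 chr3:19157874-19162332), had 1084, 949.7 and 1110.4 CPM in BN with P4, against 315, 372 and 269 CPM in BN with oil. In HSD its libraries had 1509, 1294 and 1165 CPM with P4, against 237, 245 and 273 CPM with oil. Every P4 library lay above every oil library of its strain by a wide margin. Its log2 change was 1.72 ± 0.15 in BN (adjusted p = 7.47e-06) and 2.39 ± 0.15 in HSD (adjusted p = 2.73e-07), or 3.29-fold in BN and 5.26-fold in HSD. Hsp90b1, the Hsp90 of the compartment, also called GRP94 (chr7:27345730-27359757), had 1446, 1330.4 and 1330.0 CPM in BN with P4, against 536, 662 and 502 CPM in BN with oil. Its HSD values were 1834, 1444 and 1787 CPM with P4, against 389, 414 and 436 CPM with oil. Groups did not overlap within a strain, and the oil libraries of BN stood above those of HSD. On the log2 scale the change was 1.27 ± 0.14 in BN (adjusted p = 4.47e-05) and 2.03 ± 0.14 in HSD (adjusted p = 6.18e-07). Hyou1, a large Hsp70 relative that exchanges nucleotide on BiP (chr8:47318957-47330880), had 299.9, 255 and 298 CPM in BN with P4, against 113, 105 and 89.8 CPM in BN with oil. For HSD the values were 404, 382 and 275 CPM with P4, against 99.0, 74.4 and 104 CPM with oil. HSD P4 replicate 3 was the lowest of the P4 libraries of its strain for Hspa5, Hyou1 and Calr, yet still above all oil libraries. Hyou1 rose by log2 changes of 1.47 ± 0.17 in BN (adjusted p = 6.19e-05) and 1.94 ± 0.17 in HSD (adjusted p = 3.58e-06).

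Sdf2l1, a partner of the J-domain co-chaperones (chr11:91174846-91177088), had the largest change of the 35. It had 18.7, 26.7 and 22.8 CPM in BN with P4, against 5.37, 8.44 and 5.24 CPM in BN with oil. In HSD it had 43.9, 37.8 and 60.2 CPM with P4, against 5.73, 6.92 and 4.14 CPM with oil. The groups were far apart in each strain, at the lowest CPM of the strong responders. Progesterone changed it by a log2 value of 1.83 ± 0.25 in BN (adjusted p = 2.38e-04) and 3.08 ± 0.25 in HSD (adjusted p = 2.35e-06), or 3.56-fold in BN and 8.44-fold in HSD. Creld2, a stress-induced protein with EGF-like repeats (chr7:129501501-129508346), had 71.2, 76.8 and 73.7 CPM in BN with P4, against 24.3, 23.8 and 20.9 CPM in BN with oil. Its HSD libraries had 178, 128 and 187 CPM with P4, against 28.2, 35.5 and 32.1 CPM with oil. No group of Creld2 overlapped another, and HSD with P4 was the highest. This gave a log2 change of 1.68 ± 0.14 in BN (adjusted p = 7.47e-06) and 2.37 ± 0.14 in HSD (adjusted p = 2.31e-07). MANF, a small chaperone-binding protein that can also be secreted (chr8:114982002-114985213), had 129, 128 and 136 CPM in BN with P4, against 43.7, 46.8 and 43.7 CPM in BN with oil. HSD libraries of MANF had 236, 159 and 245 CPM with P4, against 38.6, 45.3 and 46.1 CPM with oil. The oil groups of the strains overlapped, and the P4 groups did not. MANF changed by 1.55 ± 0.15 in BN (adjusted p = 1.69e-05) and 2.30 ± 0.15 in HSD (adjusted p = 3.70e-07) on the log2 scale.

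**Figure D3:**
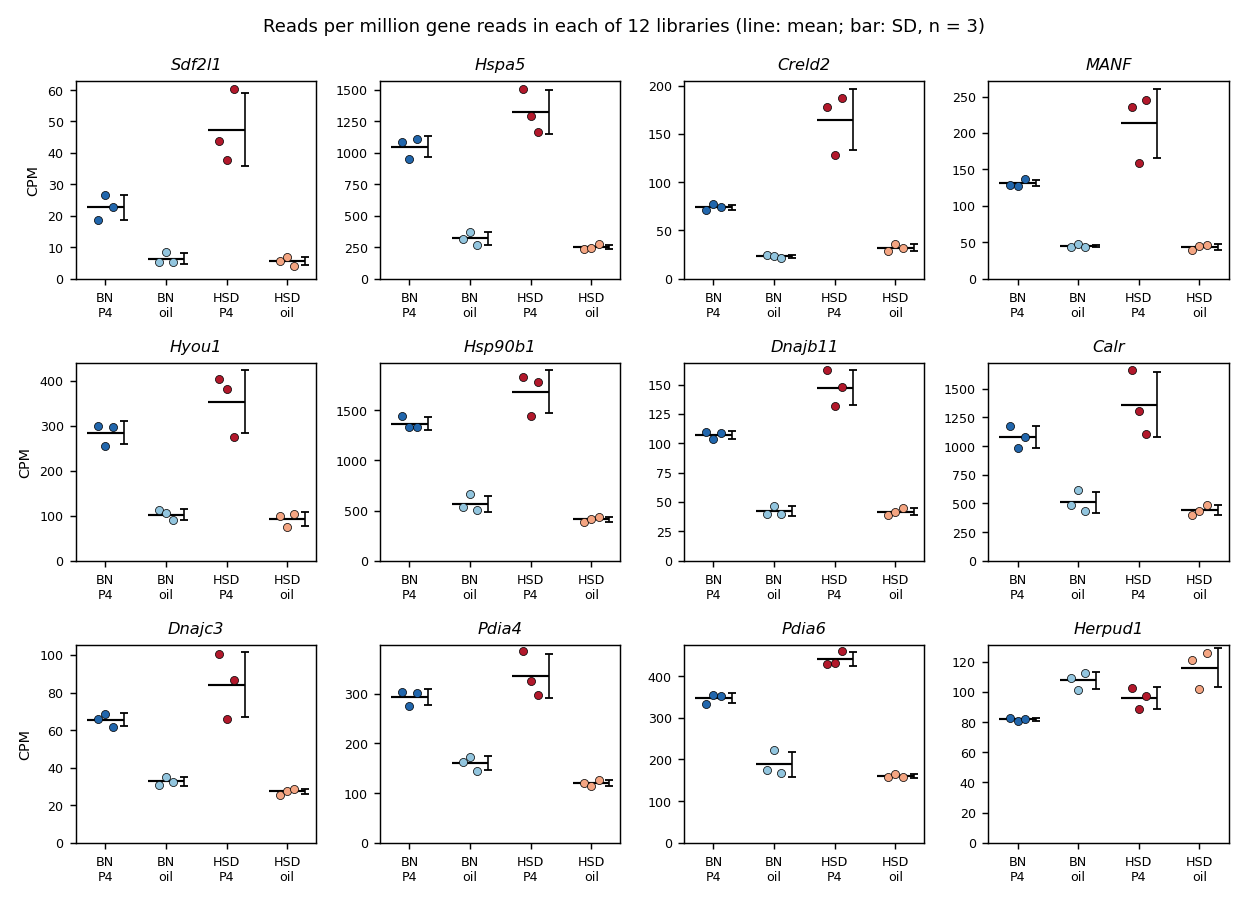
CPM in each of the 12 libraries for the 11 genes that rose in both strains by at least 1 log2 unit on average, and for Herpud1, with points for libraries, lines for means and bars for the SD (n = 3). P4 libraries stand above oil libraries in all 11, from 949.7 CPM against at most 372 CPM for Hspa5 in BN, and Herpud1 runs the other way.

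The J-domain proteins Dnajb11, Dnajc3 and Dnajb9 hand clients to BiP. Dnajb11 had 109, 104 and 109 CPM in BN with P4, against 40.1, 46.8 and 40.1 CPM in BN with oil. In HSD it had 162, 132 and 148 CPM with P4, against 38.7, 41.6 and 44.5 CPM with oil. Spread within its groups was small, and the log2 change was 1.34 ± 0.10 in BN (adjusted p = 4.42e-06) and 1.82 ± 0.10 in HSD (adjusted p = 1.74e-07). Dnajc3 had 66.0, 68.8 and 61.7 CPM in BN with P4, against 30.6, 35.2 and 32.3 CPM in BN with oil. Its HSD values were 100.4, 65.9 and 86.5 CPM with P4, against 25.6, 27.8 and 28.6 CPM with oil. The lowest HSD P4 library was replicate 2, still above every oil library, and the log2 change was 1.00 ± 0.14 in BN (adjusted p = 2.40e-04) and 1.62 ± 0.14 in HSD (adjusted p = 2.99e-06). Dnajb9, which also dampens IRE1, had 56.3, 56.8 and 51.4 CPM in BN with P4, against 38.2, 46.9 and 45.4 CPM in BN with oil. In HSD Dnajb9 had 61.9, 40.2 and 85.1 CPM with P4, against 29.8, 34.2 and 37.8 CPM with oil. Its 3 HSD P4 libraries were widely spread, and it passed the test in HSD (0.88 ± 0.21, adjusted p = 0.00509) but not in BN (0.33 ± 0.21, adjusted p = 0.263). Dnajb9 passed in BN in 1 of 21 alternative settings, with each strain fitted alone.

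The lectin chaperones hold glycoproteins during folding. Calr, calreticulin, had 1175, 987 and 1078 CPM in BN with P4, against 487, 613 and 432 CPM in BN with oil. In HSD it had 1665, 1309.8 and 1104 CPM with P4, against 403, 434 and 488 CPM with oil. P4 libraries lay above oil libraries in both strains, and the log2 change was 1.08 ± 0.17 in BN (adjusted p = 6.69e-04) and 1.62 ± 0.17 in HSD (adjusted p = 1.77e-05). Canx, calnexin, its membrane-bound relative, rose by 0.76 ± 0.11 in BN and 1.04 ± 0.11 in HSD, to 854 ± 21.5 CPM in BN with P4, against 504 ± 47.6 in BN with oil. Sil1, another nucleotide exchange factor of BiP, was the chaperone that did not rise. It had 18.9, 21.5 and 21.3 CPM in BN with P4, against 28.8, 23.3 and 23.3 CPM in BN with oil. In HSD the values of Sil1 were 18.4, 24.4 and 15.6 CPM with P4, against 26.4, 23.5 and 24.4 CPM with oil. Its groups overlapped in HSD and not in BN. Neither strain passed the test, at -0.29 ± 0.16 in BN (adjusted p = 0.201) and -0.34 ± 0.16 in HSD (adjusted p = 0.0997), and the averaged change of -0.32 ± 0.11 did (adjusted p = 0.0311), which was lost in 6 of 20 alternative settings at adjusted p up to 0.0722. Those include leaving out HSD oil replicate 1, HSD P4 replicate 1 or 3, BN oil replicate 1 or BN P4 replicate 1. Within HSD alone Sil1 was called lower in 3 of 21 alternative settings.

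Disulfide isomerases form and shuffle the bonds between cysteines. Pdia4 had 303, 275 and 300.5 CPM in BN with P4, against 163, 172 and 144 CPM in BN with oil. In HSD Pdia4 had 385, 326 and 297 CPM with P4, against 121, 115 and 126 CPM with oil. The groups of each strain were separate, and the log2 change was 0.88 ± 0.11 in BN (adjusted p = 1.56e-04) and 1.48 ± 0.11 in HSD (adjusted p = 1.43e-06). Pdia6 had 333, 354 and 353 CPM in BN with P4, against 175, 223 and 168 CPM in BN with oil. Its HSD libraries had 430.2, 432 and 460.1 CPM with P4, against 157, 166 and 158 CPM with oil. HSD values of Pdia6 lay close together within each treatment, and the log2 change was 0.88 ± 0.11 in BN (adjusted p = 1.40e-04) and 1.46 ± 0.11 in HSD (adjusted p = 1.41e-06). Pdia3, the isomerase that works with calnexin and calreticulin, rose by 0.62 ± 0.12 in BN and 1.08 ± 0.12 in HSD. P4hb, the founding protein disulfide isomerase, rose by 0.52 ± 0.09 in BN and 0.89 ± 0.09 in HSD. Erp44, which holds back unfinished proteins and oxidases, rose by 0.46 ± 0.12 in BN and 0.84 ± 0.12 in HSD, the BN call being lost without BN oil replicate 1 or 3 or BN P4 replicate 1 or 3 (adjusted p up to 0.0813). The smaller risers were Ppib, the proline isomerase cyclophilin B, at 0.31 ± 0.10 in BN and 0.54 ± 0.10 in HSD, and Dnajc10, a J-domain disulfide reductase, at 0.35 ± 0.09 in BN and 0.39 ± 0.09 in HSD. Leaving out BN oil replicate 1 or 3 or BN P4 replicate 3 ended both BN calls. Leaving out BN oil replicate 2, BN P4 replicate 2 or HSD oil replicate 1 or 3 ended that of Ppib, and leaving out BN P4 replicate 1 ended that of Dnajc10. In all, the Ppib call was lost in 11 of 21 settings and the Dnajc10 call in 4 of 21, at adjusted p up to 0.155 and 0.0863.

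Txndc5 and Ero1l passed the test in HSD alone, though in BN Txndc5 passed in 4 of 21 alternative settings and Ero1l in 1. Txndc5, a thioredoxin-type isomerase, had 95.8, 101 and 106 CPM in BN with P4, against 90.5, 78.3 and 76.5 CPM in BN with oil. In HSD Txndc5 had 99.1, 113 and 89.2 CPM with P4, against 85.3, 73.1 and 81.4 CPM with oil. P4 libraries lay just above oil libraries in both strains, and the log2 change was 0.30 ± 0.11 in BN (adjusted p = 0.0603) and 0.33 ± 0.11 in HSD (adjusted p = 0.0299). Ero1l, the oxidase that recharges the isomerases, had 78.5, 69.1 and 75.3 CPM in BN with P4, against 63.2, 66.8 and 64.7 CPM in BN with oil. Its HSD values were 82.7, 69.9 and 72.9 CPM with P4, against 61.7, 61.4 and 66.0 CPM with oil. Again P4 lay just above oil, and the log2 change was 0.20 ± 0.09 in BN (adjusted p = 0.137) and 0.25 ± 0.09 in HSD (adjusted p = 0.0436). The HSD calls were lost in 8 of 21 settings for Txndc5 and 16 of 21 for Ero1l, at adjusted p up to 0.145 and 0.273. For Txndc5 they include leaving out either HSD oil replicate 2 or 3, or HSD P4 replicate 1 or 2. For Ero1l they include leaving out any library but HSD P4 replicate 2 or BN P4 replicate 2.

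Pdia5 was the isomerase called between strains, under oil and on total gene reads (chr11:71580311-71666271). It had 39.8, 38.5 and 42.1 CPM in BN with P4, against 24.5, 28.0 and 23.9 CPM in BN with oil. In HSD it had 41.5, 33.7 and 31.2 CPM with P4, against 15.8, 15.2 and 20.7 CPM with oil. P4 libraries lay above oil libraries in both strains, and BN oil lay above HSD oil. The log2 change was 0.66 ± 0.14 in BN (adjusted p = 0.00481) and 1.04 ± 0.14 in HSD (adjusted p = 1.26e-04) for P4 over oil, and 0.56 ± 0.14 for BN over HSD under oil (adjusted p = 0.0369). Of its reads 75.1% were placed uniquely and 54.9% lay in introns, so its level is uncertain where other loci share its reads. Its exon reads were 350, 286 and 435 in BN with P4, against 223, 257 and 195 in BN with oil. In HSD they were 229, 279 and 130 with P4, against 62, 60 and 77 with oil. Intron reads of Pdia5 under oil went the other way, at 160, 141 and 97 in BN and 244, 224 and 293 in HSD. These are raw counts, the BN oil libraries held fewer reads, and this strain difference in intron reads was not tested. Counted on exon reads, the strain difference under oil was 2.17 on the log2 scale (adjusted p = 0.000597) and the P4 change in BN was 0.35 (adjusted p = 0.334). With unique gene reads the strain difference under oil was 0.30 (adjusted p = 0.288). Its call under oil was lost in 9 of 20 settings, which include leaving out HSD oil replicate 1 or 2 or any BN library.

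Herpud1 was the only degradation gene called lower, and in BN the shares called higher and lower lay near those of all tested genes. Those BN counts are not read as a result. Edem1, which trims mannose from misfolded glycoproteins, rose by 0.65 ± 0.14 in BN and 0.96 ± 0.14 in HSD. Derl1, a channel subunit of the export route, rose by 0.35 ± 0.09 in BN and 0.42 ± 0.09 in HSD, the BN call being lost without BN oil replicate 1 or 3 or BN P4 replicate 2 or 3 (adjusted p up to 0.0847). Herpud1, a membrane scaffold of the ubiquitin ligase (chr19:11027635-11037998), fell. It had 82.8, 80.6 and 82.1 CPM in BN with P4, against 109, 101 and 112 CPM in BN with oil. In HSD Herpud1 had 103, 88.4 and 97.3 CPM with P4, against 121, 102 and 126 CPM with oil. BN groups did not overlap, while HSD P4 replicate 1 stood above HSD oil replicate 2. Its log2 change was -0.40 ± 0.10 in BN (adjusted p = 0.0114) and -0.27 ± 0.10 in HSD (adjusted p = 0.0445). The BN call held in all 21 alternative settings, and the HSD call was lost in 13 of 21, at adjusted p up to 0.184. Leaving out any library other than HSD oil replicate 2 or HSD P4 replicate 1 ended the HSD call.

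Edem2, Derl2 and Sel1l passed the test in HSD alone, though Derl2 also passed in BN in 4 of 21 alternative settings. Edem2, another mannose-trimming factor, had 24.9, 32.1 and 26.6 CPM in BN with P4, against 22.6, 24.9 and 25.5 CPM in BN with oil. In HSD Edem2 had 38.3, 38.2 and 45.2 CPM with P4, against 27.0, 27.5 and 25.6 CPM with oil. BN groups overlapped and HSD groups did not, with log2 changes of 0.20 ± 0.12 in BN (adjusted p = 0.256) and 0.60 ± 0.12 in HSD (adjusted p = 0.00154). Derl2, a relative of Derl1, had 58.9, 60.5 and 57.7 CPM in BN with P4, against 41.5, 48.7 and 46.9 CPM in BN with oil. Its HSD libraries had 68.3, 56.5 and 87.7 CPM with P4, against 41.1, 47.2 and 48.1 CPM with oil. P4 libraries lay above oil libraries in both strains, with log2 changes of 0.37 ± 0.14 in BN (adjusted p = 0.0711) and 0.64 ± 0.14 in HSD (adjusted p = 0.00321), and 82.5% of its reads lay in introns. Sel1l, the adaptor of the ubiquitin ligase Syvn1, had 85.1, 78.4 and 83.4 CPM in BN with P4, against 76.7, 69.7 and 75.9 CPM in BN with oil. In HSD Sel1l had 86.2, 88.1 and 81.4 CPM with P4, against 72.6, 63.7 and 73.1 CPM with oil. The gaps between treatments were small, with log2 changes of 0.15 ± 0.09 in BN (adjusted p = 0.232) and 0.29 ± 0.09 in HSD (adjusted p = 0.0211), and the HSD call was lost in 7 of 21 settings, among them leaving out HSD oil replicate 2 or HSD P4 replicate 1.

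Syvn1, Os9 and Derl3 passed in neither strain in the main fit. In HSD Syvn1 passed in 2 of 21 alternative settings and Os9 in 1. Syvn1, the ligase also called Hrd1, changed by 0.10 ± 0.13 in BN (adjusted p = 0.644) and 0.26 ± 0.13 in HSD (adjusted p = 0.138). Os9, a lectin that brings glycoproteins to the ligase, changed by -0.20 ± 0.13 in BN (adjusted p = 0.310) and -0.26 ± 0.13 in HSD (adjusted p = 0.148), with P4 libraries below oil libraries in both strains. Derl3 had 9.50, 11.7 and 10.6 CPM in BN with P4, against 11.6, 11.5 and 16.3 CPM in BN with oil. In HSD Derl3 had 19.7, 16.7 and 23.9 CPM with P4, against 20.1, 20.6 and 17.1 CPM with oil. Treatments overlapped in each strain, and BN libraries lay below HSD libraries under each treatment. The log2 change under P4 was -0.31 ± 0.18 in BN (adjusted p = 0.224) and 0.06 ± 0.17 in HSD (adjusted p = 0.808). In BN Derl3 was called lower in 2 of 21 alternative settings, limma voom and exon reads. Its BN log2 change ran from -0.91 to -0.14 over the settings. Derl3 overlaps Smarcb1 in the annotation and 64.9% of its reads lay in introns, so its reads and those of its neighbour cannot be told apart without the strand.

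The sensors and their factors had smaller median changes than the chaperones, with strain differences of the change between -0.15 for Xbp1 and 0.13 for Ern1. Xbp1, the factor made active by IRE1 splicing (chr14:86423858-86428922), had 214, 209 and 210.5 CPM in BN with P4, against 139.6, 143 and 125 CPM in BN with oil. In HSD Xbp1 had 263, 235 and 273 CPM with P4, against 140.4, 157 and 149.7 CPM with oil. The treatments were separate in both strains, and Xbp1 rose by 0.64 ± 0.09 in BN (adjusted p = 4.11e-04) and 0.79 ± 0.09 in HSD (adjusted p = 4.29e-05). The counts do not tell its spliced from its unspliced form. Atf6, a membrane-bound factor released by cleavage, had 101, 94.7 and 105 CPM in BN with P4, against 71.9, 65.5 and 71.4 CPM in BN with oil. Its HSD values were 94.3, 97.9 and 77.4 CPM with P4, against 70.1, 46.1 and 66.3 CPM with oil. No treatments overlapped, and the log2 change was 0.53 ± 0.14 in BN (adjusted p = 0.0167) and 0.56 ± 0.14 in HSD (adjusted p = 0.00787). The BN call of Atf6 was lost without BN oil replicate 2 or 3 or BN P4 replicate 1 or 3 (adjusted p up to 0.0727).

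Atf6b, the relative of Atf6, had 90.5, 92.3 and 102 CPM in BN with P4, against 77.6, 55.3 and 61.2 CPM in BN with oil. In HSD Atf6b had 95.0, 121 and 71.2 CPM with P4, against 74.9, 59.8 and 64.7 CPM with oil. HSD groups overlapped, with P4 replicate 3 below oil replicate 1. On the log2 scale the change was 0.55 ± 0.18 in BN (adjusted p = 0.0362) and 0.53 ± 0.18 in HSD (adjusted p = 0.0310), and each call was lost in 6 of 21 settings, at adjusted p up to 0.143 in BN and 0.115 in HSD. In BN these were the fits without HSD oil replicate 3, BN oil replicate 2 or 3, or any BN P4 library. In HSD they include those without oil replicate 2 or 3 or P4 replicate 1 or 2. Ern1, which encodes IRE1 alpha, had 23.1, 24.1 and 25.0 CPM in BN with P4, against 20.9, 16.9 and 18.2 CPM in BN with oil. In HSD Ern1 had 23.5, 22.8 and 19.1 CPM with P4, against 19.9, 16.1 and 19.6 CPM with oil. BN groups were separate and HSD groups overlapped. Ern1 passed in BN in 5 of 21 alternative settings. In the main fit neither strain passed the test, at 0.36 ± 0.13 in BN (adjusted p = 0.0541) and 0.23 ± 0.13 in HSD (adjusted p = 0.174). The averaged change of 0.30 ± 0.09 did (adjusted p = 0.0159), and was lost on exon reads and without scaling factors (adjusted p up to 0.107).

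**Figure D4:**
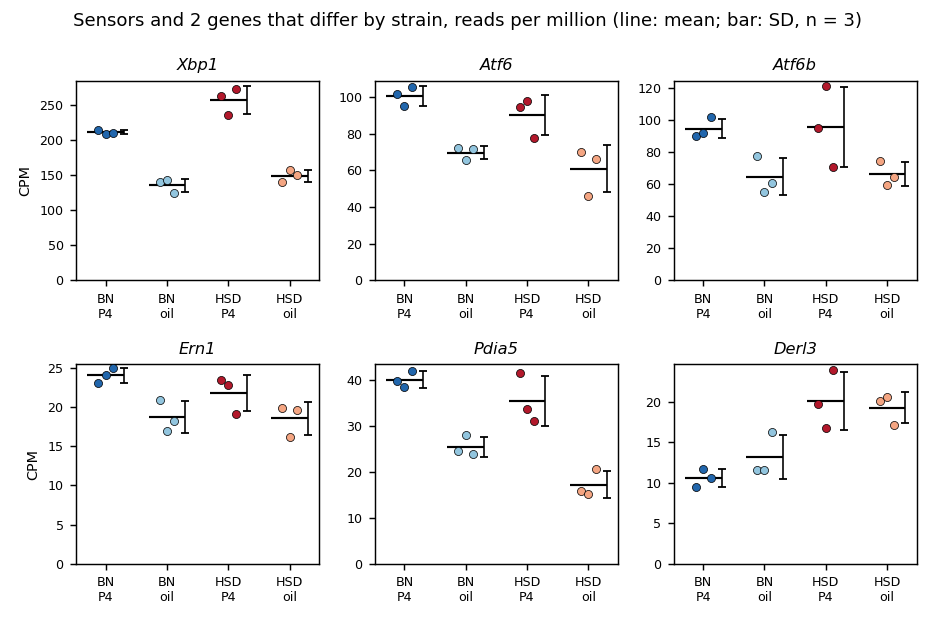
CPM in each of the 12 libraries for the 4 sensor genes and for Pdia5 and Derl3, with points for libraries, lines for means and bars for the SD (n = 3). Xbp1 and Atf6 with P4 stand above oil in both strains, whereas Derl3 is lower in BN, at 9.50 to 11.7 CPM with P4, than in HSD.

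PERK phosphorylates the initiation factor eIF2 alpha, which slows translation and favours ATF4. Of 14 tested genes of that branch and its stress-induced targets, 3 rose and 1 fell in BN (21.4% and 7.14%, against 14.0% and 11.8% of all tested genes), and 4 rose and 1 fell in HSD (28.6% and 7.14%, against 20.3% and 18.7%). These shares lie near those of all genes and rest on few calls, so the single genes are given as a description and the list is not read as a result. Eif2s1, which encodes eIF2 alpha, rose by 0.76 ± 0.14 in BN and 0.99 ± 0.14 in HSD, and Atf4 by 0.65 ± 0.10 in BN and 0.94 ± 0.10 in HSD. Ppp1r15b, the standing phosphatase subunit that reverses the phosphorylation, rose by 0.64 ± 0.11 in BN and 1.10 ± 0.11 in HSD. Ppp1r15a, its stress-induced counterpart, fell in BN (-0.45 ± 0.14, adjusted p = 0.0327) and changed by -0.06 ± 0.14 in HSD (adjusted p = 0.761). That call was lost in 5 of 21 alternative settings, at adjusted p up to 0.0998, which left out any BN oil library or BN P4 replicate 1 or 2. DDIT3, which encodes the stress factor CHOP, had 52.8 ± 3.36 CPM in BN with P4, 54.1 ± 3.16 in BN with oil, 58.8 ± 6.77 in HSD with P4 and 52.7 ± 3.88 in HSD with oil. DDIT3 passed the test in neither strain, with log2 changes of -0.04 ± 0.11 in BN (adjusted p = 0.848) and 0.16 ± 0.11 in HSD (adjusted p = 0.264). Atf3 rose in HSD (1.63 ± 0.59, adjusted p = 0.0421), where it had 11.7, 36.5 and 5.83 CPM with P4, against 4.39, 3.54 and 9.67 CPM with oil, and changed by 0.12 ± 0.59 in BN (adjusted p = 0.907). The Atf3 call was lost in 11 of 21 alternative settings, at adjusted p up to 0.362, among them the fit without HSD P4 replicate 2, its highest library, and those without HSD oil replicate 1 or 2, any BN oil library or BN P4 replicate 3. BCL2L11, a cell death factor, fell in HSD (-0.87 ± 0.20, adjusted p = 0.00421) and changed by -0.37 ± 0.20 in BN (adjusted p = 0.184). Eif2ak3, PERK itself, changed by 0.14 ± 0.13 in BN (adjusted p = 0.500) and 0.30 ± 0.13 in HSD (adjusted p = 0.0999). With the changes averaged over strains 5 of the 14 genes rose and 3 fell, where 24.6% of all tested genes were called higher and 23.7% lower. Chac1, a glutathione-degrading enzyme, rose on average by 1.39 ± 0.41 (adjusted p = 0.0125), a call lost in 1 of 20 settings, limma voom. Trib3, a pseudokinase, rose by 1.37 ± 0.52 (adjusted p = 0.0455) and stood at no more than 1.76 CPM in any library. Its averaged call was lost in 10 of 19 settings, at adjusted p up to 0.183, among them those without HSD oil replicate 1 or 3, HSD P4 replicate 2, BN oil replicate 1 or 2 or BN P4 replicate 3. Bbc3, a cell death factor, fell by an averaged change of -0.69 ± 0.21 (adjusted p = 0.0179), a call lost without BN oil replicate 1 (adjusted p = 0.0511). Chac1, Trib3 and Bbc3 passed in neither strain alone, and they were named after their values were seen.

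Of 12 tested genes that process or tune the sensors, 3 rose and 1 fell in each strain (25.0% and 8.33%), near the 14.0% and 11.8% of all tested genes in BN and the 20.3% and 18.7% in HSD, and this list is not read as a result either. Rtcb, the ligase that joins the Xbp1 exons, rose by 0.47 ± 0.08 in BN and 0.51 ± 0.08 in HSD, and Nfyb, a subunit of the factor that binds the CCAAT box, by 0.34 ± 0.10 in BN and 0.37 ± 0.10 in HSD. Mbtps1, the protease that makes the initial cut in ATF6, fell by log2 changes of -0.35 ± 0.10 in BN and -0.47 ± 0.10 in HSD. In BN the Nfyb call was lost in 8 of 21 alternative settings, at adjusted p up to 0.118, with any BN library left out among them, and the Mbtps1 call without BN oil replicate 1 or 3 or BN P4 replicate 1 or 2. Creb3 rose in HSD (0.45 ± 0.10, adjusted p = 0.00321) and changed by 0.14 ± 0.10 in BN (adjusted p = 0.337). Creb3l1 rose in BN (1.35 ± 0.35, adjusted p = 0.0139) and changed by 0.69 ± 0.35 in HSD (adjusted p = 0.135). The Creb3l1 call was lost without BN oil replicate 2 or 3 or BN P4 replicate 1. Without BN oil replicate 3 or BN P4 replicate 1 the calls in that list in BN numbered 1 in place of 4. Neither strain difference of Creb3 or Creb3l1 passed its own test (adjusted p = 0.670 and 0.854).

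Other lists of the secretory machinery are given beside the shares of all tested genes. Of these 14.0% rose and 11.8% fell in BN, and 20.3% rose and 18.7% fell in HSD. Of 23 translocon and signal peptidase genes 16 rose and 0 fell in BN, and 19 rose and 0 fell in HSD, with median log2 changes of 0.58 and 0.87. Sec61b, a subunit of the entry channel, had 88.0 ± 23.4 CPM in BN with P4, 37.9 ± 0.459 in BN with oil, 136 ± 37.2 in HSD with P4 and 40.7 ± 9.10 in HSD with oil, log2 changes of 1.22 ± 0.22 in BN and 1.74 ± 0.22 in HSD. Sec61g, another subunit, rose by 0.90 ± 0.28 in BN and 1.51 ± 0.28 in HSD. Its BN call was lost in 6 of 21 alternative settings, at adjusted p up to 0.112, which include leaving out any BN oil library or BN P4 replicate 2 or 3. Of 24 glycosylation genes 14 rose and 0 fell in BN, and 16 rose and 1 fell in HSD, with median log2 changes of 0.44 and 0.51. Ostc and Tmem258, subunits of the enzyme that attaches sugar chains, rose by 0.94 ± 0.16 in BN and 1.48 ± 0.16 in HSD and by 0.76 ± 0.16 in BN and 1.15 ± 0.16 in HSD. Of 33 other folding genes 13 rose and 1 fell in BN, and 20 rose and 0 fell in HSD, with median log2 changes of 0.27 and 0.39. Fkbp11, a proline isomerase, rose by 1.24 ± 0.20 in BN and 2.33 ± 0.21 in HSD, and Txndc11, a thioredoxin-type protein, by 1.02 ± 0.10 in BN and 1.32 ± 0.10 in HSD. Without BN oil replicate 3 the calls in BN numbered 9 in each of the glycosylation and folding lists, in place of 14, and without BN P4 replicate 1 they numbered 9 in the folding list.

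The lists below stand beside the same shares, 14.0% higher and 11.8% lower in BN and 20.3% and 18.7% in HSD. Of 25 other degradation genes 9 rose and 1 fell in BN, and 13 rose and 0 fell in HSD, with median log2 changes of 0.21 and 0.31. Rnf185, a ubiquitin ligase, had 83.8 ± 12.3 CPM in BN with P4, 42.4 ± 3.68 in BN with oil, 164 ± 14.9 in HSD with P4 and 41.4 ± 2.20 in HSD with oil, log2 changes of 0.98 ± 0.12 in BN and 1.98 ± 0.12 in HSD. Vimp, which recruits the VCP segregase to the membrane, rose by 0.60 ± 0.19 in BN and 1.02 ± 0.19 in HSD. Its BN call was lost in 9 of 21 alternative settings, at adjusted p up to 0.149, which include leaving out any BN library or HSD oil replicate 1 or 3. Without BN oil replicate 2 or 3 the calls in that list in BN numbered 4 in place of 10. Of 19 retrieval and exit genes 10 rose and 0 fell in BN, and 14 rose and 1 fell in HSD, with median log2 changes of 0.44 and 0.70. SEC23B, a coat subunit of exit vesicles, rose by 1.24 ± 0.10 in BN and 1.54 ± 0.10 in HSD, and Kdelr3, a receptor that returns escaped chaperones, by 0.92 ± 0.13 in BN and 1.19 ± 0.13 in HSD. Chaperones outside the compartment rose as well: of 30 in the cytosol and mitochondria 20 rose and 0 fell in BN, and 21 rose and 0 fell in HSD, with median log2 changes of 0.45 and 0.63. Hsph1 and Hspe1, of cytosol and mitochondria, rose by 1.75 ± 0.25 in BN and 1.53 ± 0.24 in HSD and by 1.30 ± 0.15 in BN and 1.74 ± 0.15 in HSD.

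Strain comparisons asked whether the genes stood at different levels in BN and HSD. Under oil 1 of the 35 genes was called, Pdia5, higher in BN, where 5.69% of all tested genes were called in either direction. Under P4 6 were called, all lower in BN, where 5.73% of all tested genes were called. They were Creld2 (-1.15 ± 0.14, adjusted p = 3.18e-04), Sdf2l1 (-1.06 ± 0.23, adjusted p = 0.0172) and MANF (-0.70 ± 0.14, adjusted p = 0.0117). The others were Derl3 (-0.92 ± 0.17, adjusted p = 0.00829), Edem2 (-0.54 ± 0.12, adjusted p = 0.0180) and Dnajb11 (-0.46 ± 0.10, adjusted p = 0.0196). For each of the 6 the 3 BN P4 libraries lay below the 3 HSD P4 libraries. The 6 were picked by a test on these same libraries, so this separation describes them and adds no support. Creld2, for example, had 71.2, 76.8 and 73.7 CPM in BN with P4, against 178, 128 and 187 CPM in HSD with P4. The number called under P4 was 2 without BN P4 replicate 1, 3 without BN P4 replicate 3 and 11 without HSD P4 replicate 2. Creld2 and Derl3 were called under P4 in all 20 alternative settings. The MANF call under P4 was lost without BN P4 replicate 1, those of Sdf2l1 and Edem2 without BN P4 replicate 1 or 3, and that of Dnajb11 without HSD P4 replicate 1 or any BN P4 library. Under oil the number called was 0 without any 1 BN library or HSD oil replicate 1 or 2, and 2, 4 and 5 without HSD P4 replicate 1, 2 and 3.

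The P4 change was smaller in BN than in HSD for 22 of the 23 genes that rose in both, Atf6b being the exception. How many of all genes that rose in both strains did the same was not counted. The 23 genes were read in the same 12 libraries and are not independent of each other. The median of the 35 strain differences, the BN log2 change minus the HSD log2 change, was -0.37, against 0.00 over all tested genes. It was -0.58 for the chaperones, -0.38 for the isomerases, -0.17 for degradation and -0.01 for the sensors. Among the other lists it was -0.33 for the translocon, -0.26 for retrieval and exit and -0.21 for the PERK list. It was -0.16 for cytosolic and mitochondrial chaperones, -0.14 for other folding genes, -0.10 for glycosylation, -0.10 for other degradation and 0.05 for sensor tuning. No single gene of the 35 passed the edgeR test of this difference, where 0.0510% of all tested genes were called. Adjusted p ranged from 0.259 to 0.993, and 14 of the 35 had an unadjusted p below 0.05 (40.0%, against 7.22% of all tested genes). The largest differences were -1.24 ± 0.34 for Sdf2l1, -0.76 ± 0.19 for Hsp90b1 and -0.75 ± 0.20 for MANF. DESeq2 called 4 of the 35, Hsp90b1, P4hb, Pdia4 and Pdia6, and limma voom called 0. Without HSD P4 replicate 2 edgeR called 1, MANF. In the oxidative phosphorylation list the P4 change was also smaller in BN, with medians of 0.41 in BN and 0.83 in HSD, and the part of library composition in the strain difference was not tested.

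Intron reads come mainly from RNA that is not yet spliced, and they gave a second reading of the same genes, though they are part of the total gene reads. In BN 22 of the 35 genes rose in intron reads, where 8.65% of 13523 genes tested were called higher. In HSD 23 rose, where 13.9% of tested genes were called higher. The median log2 change in intron reads was 0.68 in BN and 0.75 in HSD, against -0.01 and 0.00 over all genes. Of the 23 genes that rose in total reads in BN 21 also rose in intron reads, and of the 29 in HSD 22 did. The same overlap over all genes was not counted. Hspa5 had 102 to 144 intron reads in BN with P4, against 20 to 26 in BN with oil, and 120 to 206 in HSD with P4, against 22 to 35 in HSD with oil. Its log2 change in intron reads was 2.10 ± 0.24 in BN (adjusted p = 1.77e-05) and 2.66 ± 0.22 in HSD (adjusted p = 3.35e-07). For Calr the intron change was larger than the total change, at 1.68 ± 0.20 in BN (adjusted p = 3.45e-05) and 2.29 ± 0.20 in HSD (adjusted p = 3.92e-07). For Dnajc3 it was smaller than the total change in both strains, at 0.83 ± 0.16 in BN (adjusted p = 0.00181) and 1.01 ± 0.17 in HSD (adjusted p = 3.08e-04). Sdf2l1 changed by 2.63 ± 0.40 in BN (adjusted p = 2.61e-04) and 3.79 ± 0.35 in HSD (adjusted p = 1.01e-06) in intron reads, resting on 4 to 8 reads per oil library.

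Not every gene changed alike in both readings. The intron reads of Herpud1 did not pass the test, at -0.22 ± 0.20 in BN (adjusted p = 0.483) and 0.22 ± 0.19 in HSD (adjusted p = 0.435), while its total reads fell. Erp44 rose in total reads in both strains and did not pass in intron reads, at 0.46 ± 0.19 in BN (adjusted p = 0.101) and 0.37 ± 0.18 in HSD (adjusted p = 0.148). Atf6 was the other gene raised in both whose intron reads passed in neither strain. Sil1 fell in intron reads in HSD and Os9 fell in BN, at -0.58 (adjusted p = 0.0332) and -0.53 (adjusted p = 0.00893), where 13.2% of genes in HSD and 9.47% in BN were called lower. No gene of the 35 was called lower in intron reads in HSD without HSD oil replicate 1 or 2 or HSD P4 replicate 1 or 3, and none in BN without BN P4 replicate 1. Syvn1 rose in intron reads in HSD and Derl2 in BN, where their total reads had not passed the test.

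**Figure D5:**
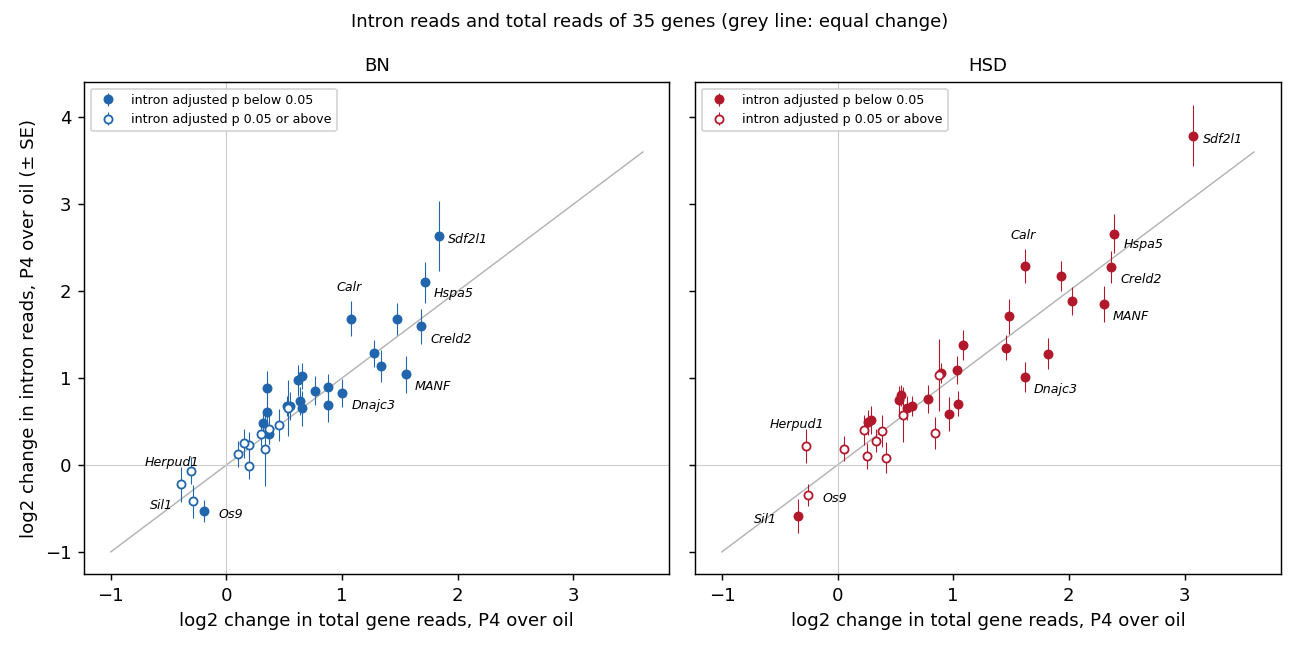
Log2 change in intron reads (vertical, ± SE) against log2 change in total gene reads (horizontal) for the 35 genes, BN on the left and HSD on the right, with a grey line for equal change and filled points for an intron adjusted p below 0.05. Points follow the line, Sdf2l1 and Calr lie above it, and Herpud1 lies above it with a negative total change.

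Levels between genes were compared per length, as the deposited RPKM. Under P4 the most abundant of the 35 was Hsp90b1, with 469 ± 23.8 RPKM in BN with P4, 199.7 ± 32.1 in BN with oil, 549 ± 58.2 in HSD with P4 and 146 ± 8.24 in HSD with oil. Hspa5 had 406 ± 32.8 RPKM in BN with P4, 127 ± 20.7 in BN with oil, 485 ± 64.8 in HSD with P4 and 100.5 ± 7.16 in HSD with oil. By mean RPKM Hspa5 ranked 142 of 26312 genes in BN with P4 and 399 in BN with oil. In HSD it ranked 131 with P4 and 540 with oil. With P4 the order was Hsp90b1, Hspa5 and Calr in both strains. Calr had 374 ± 32.4 RPKM in BN with P4, 183 ± 33.7 in BN with oil, 445 ± 94.1 in HSD with P4 and 158 ± 15.2 in HSD with oil, and its P4 means lay within 1 SD of those of Hspa5. With oil the most abundant was Ppib, at 255 ± 22.0 RPKM in BN with P4, 213 ± 10.0 in BN with oil, 277 ± 28.3 in HSD with P4 and 209 ± 14.2 in HSD with oil. Ppib ranked 222 in BN with P4 and 221 in BN with oil, and 228 under both treatments in HSD. At the low end Ern1 had 5.77 ± 0.449 RPKM in BN with P4, 4.71 ± 0.458 in BN with oil, 4.99 ± 1.11 in HSD with P4 and 4.72 ± 0.923 in HSD with oil, and Derl3 had 2.33 ± 0.351 RPKM in BN with P4, 4.49 ± 1.43 in BN with oil, 6.05 ± 1.62 in HSD with P4 and 6.74 ± 0.796 in HSD with oil. In HSD with oil Pdia5 was the lowest, at 2.12 ± 0.367 RPKM. Sdf2l1 ranked 4071 in BN with P4 and 9004 in BN with oil, and 2008 in HSD with P4 and 9514 in HSD with oil.

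Markers of cell types in the uterus were examined beside these changes. Of all tested genes 14.0% rose and 11.8% fell in BN, and 20.3% rose and 18.7% fell in HSD. Of 11 tested epithelial markers 0 rose and 4 fell in BN, and 1 rose and 4 fell in HSD, with median log2 changes of -0.20 and -0.38. Smooth muscle markers were called in neither strain, 0 of 8. Of 9 stromal markers 1 rose and 1 fell in BN, and 0 rose and 1 fell in HSD. Plasma cells are rich in these chaperones. Of 8 tested markers 2 rose and 1 fell in each strain, with medians of -0.28 in BN and -0.57 in HSD, and their summed level was 104 to 123 CPM in BN with P4, 77.8 to 82.4 in BN with oil, 105 to 131 in HSD with P4 and 78.6 to 94.2 in HSD with oil. CD79A, a defining marker of B cells, was at 0 in every library. The part of these shifts in the changes above was not tested.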

How the data were processed

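RNA of rat uterus in 12 libraries, 4 groups of 3, was analysed from 1 table per library. Counts deposited by the authors were used: total gene reads span exons and introns, and unique, exon and intron reads stand beside them, per the file headers. RPKM, deposited by the authors per the file headers, was recomputed from the counts within 1% for 98.6% of values in the lowest library. The build is Rnor_5.0, per the submitters' processing notes; for the aligner, counter and strand: not given in the sources used here. Libraries were TruSeq polyA, per the labels' protocols.

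Groups came from the titles. Genes were filtered by filterByExpr (15697 kept, with 99.95% of reads), scaled by TMM and fitted over 4 groups with edgeR 4.0.16 (R 4.3.3), using its robust quasi-likelihood test, with 8 residual degrees of freedom and Benjamini-Hochberg adjustment over all genes tested. The standard error is the log2 change over the root of F. Called means an adjusted p below 0.05. Intron reads were fitted alike. Alternatives used limma 3.58.1 and DESeq2 1.42.0. The fit was tested on simulated data with 200 changed genes of 15507 in HSD, P4 over oil. Replicates differed beyond counting noise (chi-square per degree of freedom 4.52 to 78.3), and depth floors cover counting error only. The 35 genes, their roles, the other lists and the tests were chosen with earlier results of these data known. Named genes were all 35; values in every library were given to those called in both strains with an averaged log2 change of at least 1, to the sensors, and to those called in 1 strain or in a strain contrast. Sil1 and Herpud1, the genes lower on average, were given such values outside this rule, after their values were seen. Of other lists, the 2 leading genes called in both strains without overlap were named, or all calls where 5 or fewer. Protein sequences were not analysed here.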

Additional observations from a re-analysis of the deposited data

How the results depend on the processing

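No direction of any of the 35 genes was reversed among calls in 21 alternative settings. Of the 23 genes raised in BN 16 were called in every one of these, and of the 29 raised in HSD 25 were. Leaving out 1 library at a time gave 17 to 26 genes raised in BN, 25 to 29 in HSD and 30 to 31 averaged; for genes that fell it gave 1 in BN, 0 to 1 in HSD and 1 to 3 averaged. It gave 0 to 5 called between strains under oil, 2 to 11 under P4 and 0 to 1 for the strain difference of the change. Over all genes it gave 1319 to 2761 higher in BN, 436 to 1327 between strains under oil, 341 to 1515 under P4 and 2 to 17 for the strain difference. In BN the sensor tuning list had 1 to 4 calls, glycosylation 9 to 17, other folding 9 to 17 and other degradation 4 to 10, and averaged over strains the PERK list had 5 to 9. Intron reads gave 0 to 2 genes lower in HSD and 0 to 1 in BN.

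Genes of the 35 called lower in HSD numbered 3 by library size alone, which moved the median of all genes to -0.14 in HSD, 2 by upper-quartile factors, and 0 without a filter, by limma voom or with each strain fitted alone, in place of 1. In BN 2 were lower by limma voom and 2 on exon reads, in place of 1, and averaged over strains 1 on exon reads in place of 2. Between strains under oil DESeq2 called 5 of the 35, limma voom 4 and unique reads 0, in place of 1; for the strain difference DESeq2 called 4 in place of 0. On intron reads scaled by the TMM factors of total reads, 2 were lower in HSD in place of 1. The PERK list in BN had 8 calls by limma voom in place of 4. Over all genes, limma voom called 3444 higher and 3295 lower in BN (main counts 2196 and 1849), 1964 between strains under oil (893), 1688 under P4 (900) and 26 for the strain difference (8). DESeq2 called 1519 under P4 and 119 for the strain difference, exon reads 538 under oil and 566 under P4, and each strain alone 1932 lower in HSD (2940). Searching 250 bases before the start left ERSE-II in 2 genes in place of 3, since the Dnajb11 match ends on the start. The causes of the other shifts were not tested. No paired analysis was possible because the replicate numbers only name samples in accession order. The widest SE among the 35 was 0.25, for Sdf2l1, which stood at 4.14 to 8.44 CPM with oil; the part of depth in it was not tested.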
